A study of Homo sapiens with 9 samples.

Results

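The genes that drive cells from G1 into S phase and those that copy the genome were described across the libraries of 3 clones of LNCaP, an androgen-responsive prostate cancer cell line. They are 40 genes of 19984 in the normalized count table, and all 40 were found. They were chosen by symbol for known roles in the G1/S transition and DNA replication, with earlier results of these data known. In the clones del-4 and del-56 the promoter and the first and the second exon of the lncRNA gene *EPCART* had been removed with CRISPR-Cas9, and the control was a wild-type (WT) clone of the same line. Each group was 1 clone, so that a difference between groups is one between clones. From each clone 3 biological replicates, grown for 48 h in RPMI medium with fetal bovine serum, glutamine, penicillin and streptomycin and given no further agent, were sequenced as polyA-enriched, strand-specific RNA, 1 library each.

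Mitogens induce D-type cyclins, which act with CDK4 and CDK6, and then E-type cyclins, which act with CDK2. These kinases phosphorylate the retinoblastoma protein RB, which releases E2F transcription factors, and E2F activates the genes for replication proteins. Before S phase the origin recognition complex, CDC6 and CDT1 load the ring of MCM proteins onto DNA, a step called licensing, and at the start of S phase CDC45 and the GINS complex turn that ring into the moving helicase ahead of the polymerases.

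Reads on genes ranged from 91074556 to 118877134 per library, with the lowest total in del-56 replicate 3. Values are normalized counts, i.e., reads divided by a size factor for each library, and are not corrected for gene length. The luminal prostate markers *KLK3*, *KLK2*, *TMPRSS2*, *FOLH1*, *HOXB13*, *KRT8* and *KRT18* were detected in every library, for example *KLK3* at normalized counts of 35098 to 59859.6 and *KRT8* at 53224 to 61145. The 10 stromal, immune and endothelial markers summed to between 2006 and 2733, with *CD3E* and *CDH5* at 0 in all libraries, and the 6 basal and neuroendocrine markers to between 1756 and 2624. The latter sum, which is almost all *ENO2*, was higher in del-4 (2479 to 2624) than in the other clones, the former was higher in del-56 (2361 to 2733), and their part in the results was not tested. The lncRNA *EPCART* itself was not analysed here.

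Of the 11 listed genes of origin licensing 7 were lower in both deletion clones, as were all 4 of helicase activation. Of 18 further licensing and firing genes 4 were lower in both. Over all genes tested in both comparisons, 14.0% were. That share covers all chromosomes, whereas *ORC6*, *CDT1* and *GINS2* lie on chromosome 16. There 91.6% of the other genes had a negative log2 fold change for del-4, and 89.5% for del-56. With each chromosome centred on its median, *ORC6* and *CDT1* were not called for del-4. The other listed licensing and activation genes lower in both clones kept their calls. Of 39 genes tested against WT, 15 fell and 5 rose in del-4, whereas 23 fell and 4 rose in del-56 (limma, Benjamini-Hochberg adjusted p under 0.05). Changes are log2 fold changes of the normalized count plus 1, and *CCND2* had too few reads to be tested against WT. Among all genes tested, 40.7% were called in del-4 (20.2% lower and 20.5% higher) and 39.7% in del-56 (20.5% lower and 19.2% higher). The G1/S and replication genes were thus called lower in 38.5% of cases in del-4 and 59.0% in del-56. They were called higher in 5 and 4 cases. Their median log2 fold change was -0.073 for del-4 and -0.115 for del-56, beside -0.0028 and -0.0011 over all genes tested. In bulk RNA, fewer cells in S phase and less RNA per cell of these genes cannot be told apart. Both comparisons used the same WT libraries and are therefore not independent of each other.

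The 15 genes lower in both clones were *CCND3*, *CDK2*, *RB1*, *ORC6*, *CDC6*, *CDT1*, *MCM4*, *MCM5*, *MCM6*, *MCM7*, *MCM10*, *CDC45*, *GINS1*, *GINS2* and *TK1*. *CDKN1B*, *E2F2* and *E2F3* were higher in both. Over all 17191 genes tested in both comparisons, 14.0% were lower and 13.2% higher in both clones. No gene of the 40 was called in opposite directions, and 11 were called in neither comparison, *CCND2* among them, which was not tested. The changes were small. The limits of the study, a log2 fold change beyond 1 in either direction and a p under 0.05, which was read here as unadjusted although the study does not state it, were passed by 5.82% of all genes for del-4 and by 5.94% for del-56, but by none of the 40 in del-4 and in del-56 by *CDK6* alone. The deletion libraries did not overlap with WT for 18 lower and 9 higher genes in del-4 and for 23 lower and 5 higher genes in del-56, whereas 24.8% of all genes were separated in this way as lower in each clone, and 24.8% and 24% as higher.

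The split between higher and lower genes in del-4 depended on the scaling. With all libraries rescaled to the same total, 1 gene was higher and 21 lower in del-4, and 2 were higher and 25 lower in del-56. Under that scaling all genes split into 2364 higher and 4932 lower in del-4, in place of 3565 and 3517, and into 2751 and 4005 in del-56, in place of 3358 and 3580. With each chromosome centred on its own median, 2 genes were higher and 17 lower in del-4. The 5 higher genes of del-4 also became 3 without any single one of the WT libraries or without del-4 replicate 2 or 3, and the 4 of del-56 became 2 without WT replicate 1 or del-56 replicate 2.

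**Figure D1:**
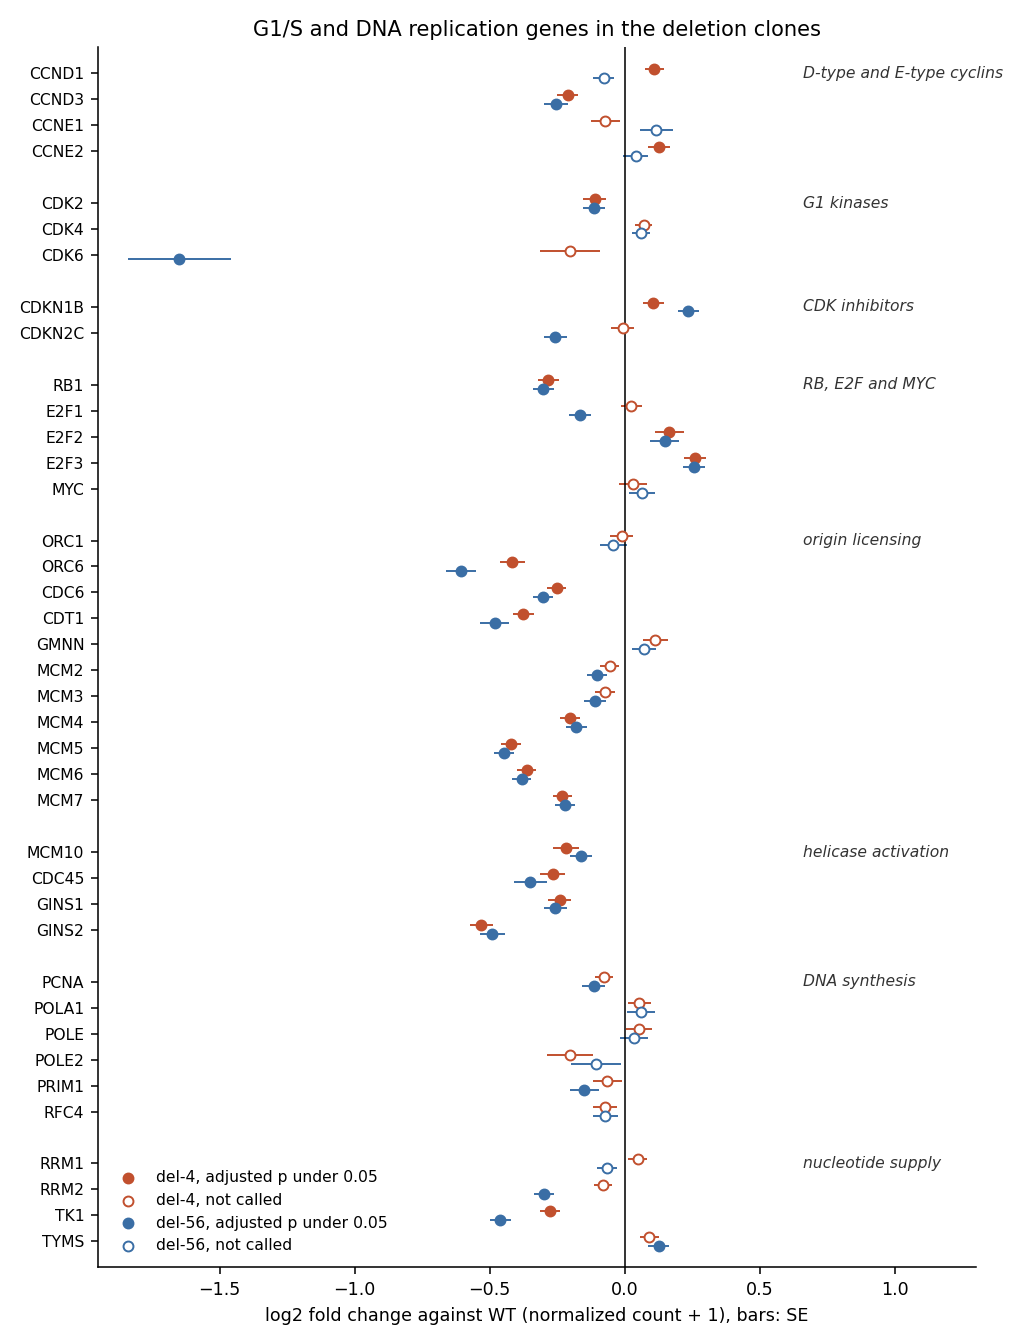
Log2 fold change against WT (x axis, on normalized count plus 1) with its SE for the 39 genes tested (y axis, grouped by role), for del-4 and del-56, with filled points for an adjusted p under 0.05. Points of licensing and helicase activation genes lie mostly left of 0, down to -0.53 for *GINS2* in del-4 and -0.61 for *ORC6* in del-56, and *CDK6* in del-56 stands apart at -1.65.

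E2F factors bind short GC-rich words near the start sites of many of these genes. RefSeq promoters of GRCh38.p14, each with 250 bases before and 50 after a start site, were at hand for 33 of the 40 genes (not for *CCND1*, *CCND2*, *CCNE2*, *CDK2*, *MYC*, *MCM4* and *MCM5*), and the first listed start of each gene was taken. They were searched on both strands for 4 E2F words, TTTCCCGC, TTTCGCGC, TTTGCCGC and TTTGGCGC, which may overlap each other. At least 1 word was present in 16 of the 33 promoters (48.5%), in 15 of 72 promoters of the other pathway genes described further on (20.8%), in 908 of all 27305 promoters (3.33%), in 4.44% of those of protein-coding genes and in 2 of 18 promoters of mitotic genes (11.1%). The word TTTGAA, which lies in the cell cycle homology region of mitotic promoters, was in 2 of the 33 (6.06%), in 11 of the 18 mitotic ones (61.1%) and in 15.4% of all. The E2F words were in 6 of 12 promoters of genes lower in both clones and in 10 of the 21 others (47.6%). A match is a run of letters and not a bound site.

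Promoters are shown for 3 genes that fell in both clones, 1 from each step (*MCM6*, the helicase ring; *GINS2*, its activator; *CDC6*, its loader), and for *E2F3*, which rose in both. Sequences read 5′ to 3′ on the strand of the gene, with E2F words in capitals. In *MCM6* (chr2:135876394-135876693, minus strand) 4 words form 2 overlapping pairs, which begin 152 and 90 bases before the start. The word of *GINS2* (chr16:85688905-85689204, minus strand) begins 31 bases before it, that of *CDC6* (chr17:40287629-40287928, plus strand) occupies bases 8 to 15 counted from 1 at the start, and that of *E2F3* (chr6:20401629-20401928, plus strand) begins 53 bases before it.
MCM6: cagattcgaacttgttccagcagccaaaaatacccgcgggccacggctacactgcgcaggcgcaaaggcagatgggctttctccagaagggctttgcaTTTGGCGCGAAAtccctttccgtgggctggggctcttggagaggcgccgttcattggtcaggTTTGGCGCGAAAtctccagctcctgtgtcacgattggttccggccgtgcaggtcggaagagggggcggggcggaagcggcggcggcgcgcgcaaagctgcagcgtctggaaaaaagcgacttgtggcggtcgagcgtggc
GINS2: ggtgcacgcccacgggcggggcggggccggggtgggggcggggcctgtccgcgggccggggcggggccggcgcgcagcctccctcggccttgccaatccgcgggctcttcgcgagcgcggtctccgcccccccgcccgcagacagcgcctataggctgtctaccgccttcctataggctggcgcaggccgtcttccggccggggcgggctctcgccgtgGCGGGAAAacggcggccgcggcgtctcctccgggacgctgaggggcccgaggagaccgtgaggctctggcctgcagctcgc
CDC6: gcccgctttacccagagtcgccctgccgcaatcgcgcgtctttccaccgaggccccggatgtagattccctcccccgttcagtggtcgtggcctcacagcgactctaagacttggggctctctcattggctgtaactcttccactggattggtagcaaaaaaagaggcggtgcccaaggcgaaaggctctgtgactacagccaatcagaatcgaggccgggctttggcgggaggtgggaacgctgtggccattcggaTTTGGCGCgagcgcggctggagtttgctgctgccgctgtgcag
E2F3: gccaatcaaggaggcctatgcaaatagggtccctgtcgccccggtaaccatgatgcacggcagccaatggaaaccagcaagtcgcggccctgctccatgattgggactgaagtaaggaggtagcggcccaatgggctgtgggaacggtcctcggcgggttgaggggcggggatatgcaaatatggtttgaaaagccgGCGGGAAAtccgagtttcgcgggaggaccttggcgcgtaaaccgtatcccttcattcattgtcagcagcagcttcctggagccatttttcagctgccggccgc

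Among the cyclins, *CCND3*, which encodes cyclin D3, was lower in both clones, and the other members followed no shared direction. *CCND1* (cyclin D1, ENSG00000110092.4, chr11:69641156-69654474, plus strand) had the normalized counts 34430.5, 34782 and 33931 in del-4, 31018, 29624 and 29933 in del-56, and 30865, 32332 and 32431 in WT. This corresponded to a log2 fold change of 0.11 (SE 0.035, adjusted p = 0.0175) in del-4, where it rose and did not overlap with WT, and -0.078 (SE 0.037, adjusted p = 0.112) for del-56, where it was not called. The rise in del-4 was not called after rescaling to the same total (0.040, adjusted p = 0.4), with quantile normalization (0.046, adjusted p = 0.313) or with chromosomes centred (adjusted p = 0.0677). In del-56 *CCND1* was called lower after rescaling (-0.107, adjusted p = 0.0359), without WT replicate 1 (-0.101, adjusted p = 0.0484) and without del-56 replicate 1 (-0.098, adjusted p = 0.042). *CCND3* read 7586, 7427 and 7579.5 in del-4, 7692, 7076 and 7188 in del-56, and 8487, 9151 and 8530.1 in WT, with WT above all 6 deletion libraries, and fell by 0.21 in del-4 and by 0.25 in del-56 on the log2 scale. *CCND2* had no read in the WT libraries and at most 4 reads in any library, which is close to the floor of 3 reads, and no fold is given. The E-type cyclin *CCNE2* rose in del-4 (0.13, SE 0.041, adjusted p = 0.0206) and was not called in del-56, and *CCNE1* was called in neither clone (-0.072 and 0.12). *CCNE2* shares 37.05% and *CCND1* 10.4% of its exon length with a gene on the opposite strand (*INTS8* and *LTO1*), and the strand setting of the counting was not given in the sources used here.

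*CDK6*, which encodes a partner of D-type cyclins, was the exception in size. Per kilobase of exon it stood at 37.4 normalized counts in WT, beside 7606 for *CDK4*. Its normalized counts were 398, 422 and 374 in del-4, 118, 124 and 209 in del-56, and 464, 461 and 449 in WT. The del-56 libraries lay far below all others, and within del-56 replicate 3 was higher than the rest. The log2 fold change was -1.65 (SE 0.19, adjusted p = 4.45e-06) for del-56, which corresponds to 0.319 of the WT level, and lay between -1.91 and -1.50 when 1 library was left out. In del-4 all 3 libraries were below WT but the difference was not called (-0.20, SE 0.11, adjusted p = 0.16). *CDK2*, the partner of E-type cyclins, fell slightly in both clones (-0.11 for del-4, adjusted p = 0.037, and -0.11 for del-56, adjusted p = 0.0313), and its libraries overlapped with WT in del-4. *CDK4* was called in neither clone (0.07 and 0.06), with 44.25% of its exon length shared with *TSPAN31* on the opposite strand.

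The CDK inhibitors *CDKN1B* and *CDKN2C* did not move together. *CDKN1B*, which encodes p27, the inhibitor of cyclin E-CDK2, read 6357, 6381 and 6634 in del-4, 6997, 7164 and 7024.5 in del-56, and 5968, 6070.0 and 5959 in WT. It was lowest in WT and highest in del-56 with no overlap between the 3 groups. It rose by 0.24 (SE 0.038, adjusted p = 0.000131) in del-56 and by 0.11 (SE 0.038, adjusted p = 0.0337) in del-4, on the log2 scale. The call in del-4 was lost when any WT library or del-4 replicate 3 was left out (adjusted p from 0.0566 to 0.144), after rescaling to the same total (0.037, adjusted p = 0.501) and with chromosomes centred (adjusted p = 0.0694). *CDKN2C*, which encodes p18, an inhibitor of CDK4 and CDK6, read 5842, 5559 and 5995.5 in del-4, 4899.5, 4773 and 4964 in del-56, and 5761, 6040.1 and 5687 in WT. All del-56 libraries stood below WT and those of del-4 overlapped with it, with a log2 fold change of -0.26 (SE 0.042, adjusted p = 0.000151), in del-56, beside -0.0078 for del-4.

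Downstream of the kinases, *RB1* was lower, *E2F2* and *E2F3* were higher and *MYC* was not called. *RB1* (ENSG00000139687.16, chr13:48303744-48599436, plus strand), which encodes the retinoblastoma protein that holds E2F inactive, had 6448, 6797 and 6655 in del-4, 6587, 6703 and 6367 in del-56, and 7918.5, 7978 and 8322 in WT, so that each deletion library lay below each WT library. The log2 fold change was -0.28 (SE 0.039, adjusted p = 1.1e-05) for del-4 and -0.30 (SE 0.04, adjusted p = 1.89e-05) for del-56. *E2F3*, an activator E2F (ENSG00000112242.15, chr6:20401879-20493714, plus strand), read 5709, 5821.5 and 5806 in del-4, 5796, 5781 and 5723 in del-56, and 4831, 4696 and 4958 in WT. All 6 deletion libraries were above WT and the clones were nearly equal, with 0.26 (SE 0.04, adjusted p = 4.1e-05) for del-4 and 0.26 (SE 0.041, adjusted p = 0.000114) for del-56. *E2F2*, a further activator, read 2760.1, 2938 and 2903 in del-4, 2822, 2862.5 and 2808 in del-56, and 2409, 2646.5 and 2618 in WT, and rose with log2 fold changes of 0.17 (SE 0.053, adjusted p = 0.0181) and 0.15 (SE 0.053, adjusted p = 0.0357). *E2F1*, an activator E2F and itself an E2F target, read 10891, 10223 and 10478 in del-4, 9646, 9096 and 8986.5 in del-56, and 9977, 10441 and 10650.1 in WT. It fell in del-56 (-0.16, SE 0.041, adjusted p = 0.00457) and overlapped with WT in del-4 (0.024, SE 0.038, adjusted p = 0.661). *MYC*, which promotes cell growth and entry into S phase, lay between 17911 and 21584 in all libraries, with overlapping groups and a log2 fold change of 0.03 (SE 0.053, adjusted p = 0.694) for del-4 and 0.065 (SE 0.049, adjusted p = 0.323) for del-56.

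The *E2F2* calls depended on single libraries. They were lost in del-4 without WT replicate 1 or del-4 replicate 2 or 3 (adjusted p from 0.0635 to 0.0778) and in del-56 without WT replicate 1 or 3 or del-56 replicate 2 or 3 (0.0563 to 0.138). They were also lost in both clones after rescaling (0.096 in del-4, adjusted p = 0.201) and with chromosomes centred (0.062 and 0.039).

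**Figure D2:**
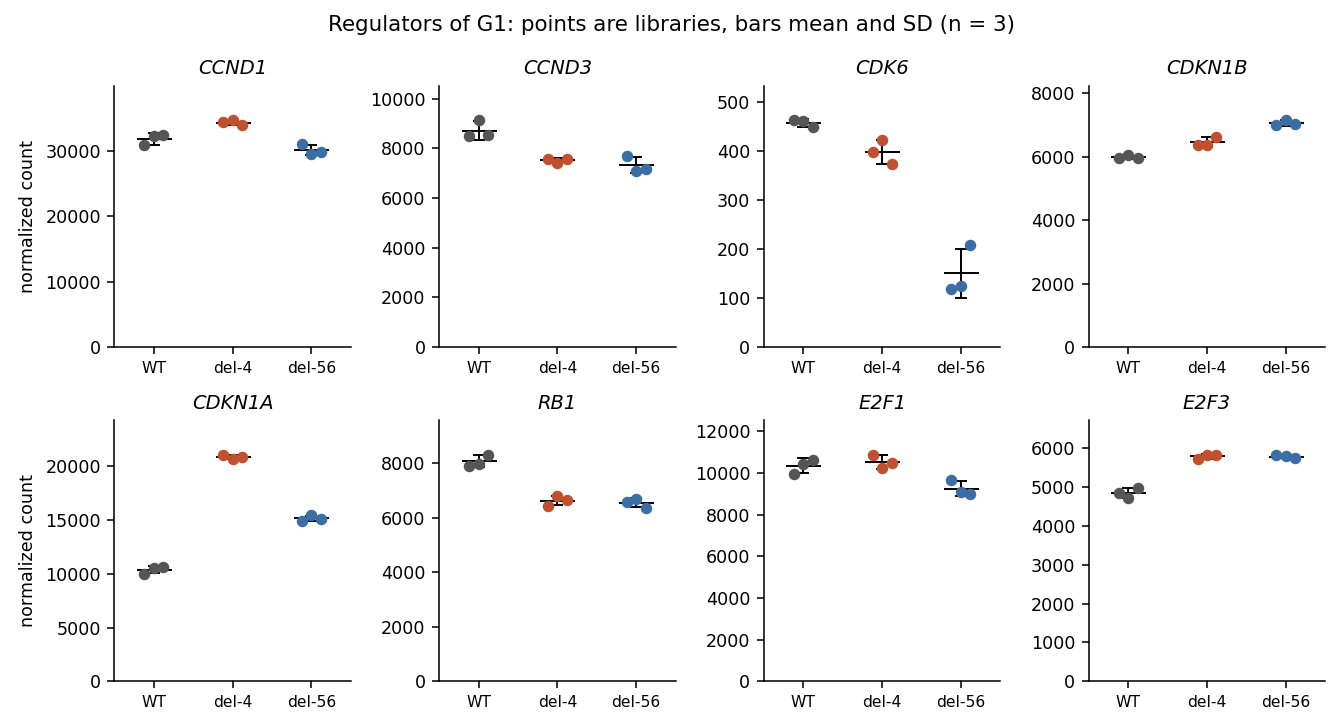
Normalized counts (y axis, from 0) of 8 regulators of G1 in the 3 libraries of WT, del-4 and del-56 (x axis), with the mean and SD of each group. *CDK6* in del-56 is at 118 to 209 against 449 to 464 in WT, *E2F3* and *CDKN1A* are above WT in both clones, and *RB1* and *CCND3* are below it.

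Of the 11 genes of origin licensing, 7 fell in del-4 and 9 in del-56, none was called higher, and the median log2 fold change was -0.23 for del-4 and -0.22 for del-56. *CDC6* (ENSG00000094804.12, chr17:40287879-40304657, plus strand), an ATPase that brings the helicase to the origin and whose promoter is printed above, read 10772, 11453 and 11017 in del-4, 10281, 10905 and 10900.0 in del-56, and 13398, 12981 and 13189 in WT. Both clones were below WT with no overlap, with log2 fold changes of -0.25 (SE 0.036, adjusted p = 1.88e-05) for del-4 and -0.30 (SE 0.038, adjusted p = 1.02e-05) for del-56. *CDT1* (ENSG00000167513.9, chr16:88803789-88809258, plus strand), its partner in loading, read 6752, 6931 and 6666.5 in del-4, 6928, 5862.5 and 6165 in del-56, and 8404, 8999 and 9003 in WT, again without overlap, and the log2 fold change was -0.38 (SE 0.039, adjusted p = 5.13e-07) for del-4 and -0.48 (SE 0.054, adjusted p = 3.34e-06) for del-56. *GMNN* encodes geminin, which binds and blocks CDT1. It was the only licensing gene with positive log2 fold changes and was not called in either clone (0.11 for del-4, adjusted p = 0.0557, and 0.072 for del-56). The ratio of *CDT1* to *GMNN* counts within a library was 1.75 to 1.90 in WT, 1.25 to 1.35 in del-4 and 1.13 to 1.41 in del-56. *CDT1* lies on chromosome 16 and *GMNN* on chromosome 6. With chromosomes centred, *CDT1* was at -0.038 (adjusted p = 0.466) in del-4 and -0.17 (adjusted p = 0.0137) in del-56. The part of the chromosome 16 shift in the ratio was not tested.

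Of the subunits of the origin recognition complex that were listed, *ORC6* was called and *ORC1* was not. *ORC6* (ENSG00000091651.9, chr16:46689643-46698394, plus strand), its smallest subunit, had 3743.5, 3661 and 3817 in del-4, 3121, 3538 and 3188 in del-56, and 4689.8, 5121 and 5181 in WT, lowest in del-56, and fell, with log2 fold changes of -0.42 (SE 0.046, adjusted p = 1.08e-06) for del-4 and -0.61 (SE 0.056, adjusted p = 3.7e-07) for del-56. *ORC1*, an ATPase subunit, had log2 fold changes of -0.011 and -0.043, and its libraries lay between 3746 and 4199.5 in all groups.

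All 6 subunits of the MCM ring had negative log2 fold changes in both clones, of which 4 were called in del-4 and 6 in del-56. *MCM5* (ENSG00000100297.16, chr22:35400134-35425431, plus strand) changed most, with 9744, 10022 and 9742 in del-4, 9813, 9452 and 9726 in del-56, and 12994, 13584 and 12941 in WT. Its 6 deletion libraries lay within 9452 to 10022, clear of WT, and it fell, with log2 fold changes of -0.42 (SE 0.036, adjusted p = 3.55e-08) for del-4 and -0.45 (SE 0.037, adjusted p = 1.36e-07) for del-56. *MCM6* (ENSG00000076003.5, chr2:135839626-135876443, minus strand), with the paired E2F words shown above, read 12746, 13081 and 13036 in del-4, 12463, 12839 and 13064.5 in del-56, and 16656, 16298 and 17032 in WT and fell, with log2 fold changes of -0.36 (SE 0.034, adjusted p = 1.43e-07) for del-4 and -0.38 (SE 0.037, adjusted p = 6.25e-07) for del-56. *MCM7* read 34164, 36385 and 34403 in del-4, 35261, 35675 and 34684 in del-56, and 41231, 41257 and 40621 in WT, likewise without overlap, and *MCM4* ranged from 22629 to 24648 in the deletion clones and from 26141 to 27815 in WT. Their log2 fold changes were -0.23 and -0.22 for *MCM7* and -0.20 and -0.18 for *MCM4*, all called. *MCM2* and *MCM3* were called in del-56 alone, where they were -0.10 (adjusted p = 0.0345) and -0.11 (adjusted p = 0.0422). In del-4 they were -0.055 and -0.073, and the direct comparison of the clones called neither.

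Among the transcripts of the 6 ring subunits, the shares shifted. These are shares of RNA and do not give the make-up of the protein ring. Summed over *MCM2* to *MCM7*, the normalized count was 139779 to 142497 in WT, 119381 to 126467 in del-4 and 120944 to 122394 in del-56. Corrected for exon length, *MCM5* made up 6.60 to 6.90% of the 6 transcripts in WT, 5.67 to 5.84% in del-4 and 5.56 to 5.85% in del-56. The share of *MCM6* was 14.6 to 15.3% in WT and 13.0 to 13.5% in the deletion clones, whereas that of *MCM2* was 22.4 to 23.0% in WT and 23.7 to 25.4% in them. *MCM7*, with the largest share, stayed within 29.6 to 31.1% in all libraries, and *MCM5* had the lowest level per kilobase in each group. Exon length counts all annotated exons of a gene, so that the ranking of subunits depends on the annotation.

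**Figure D3:**
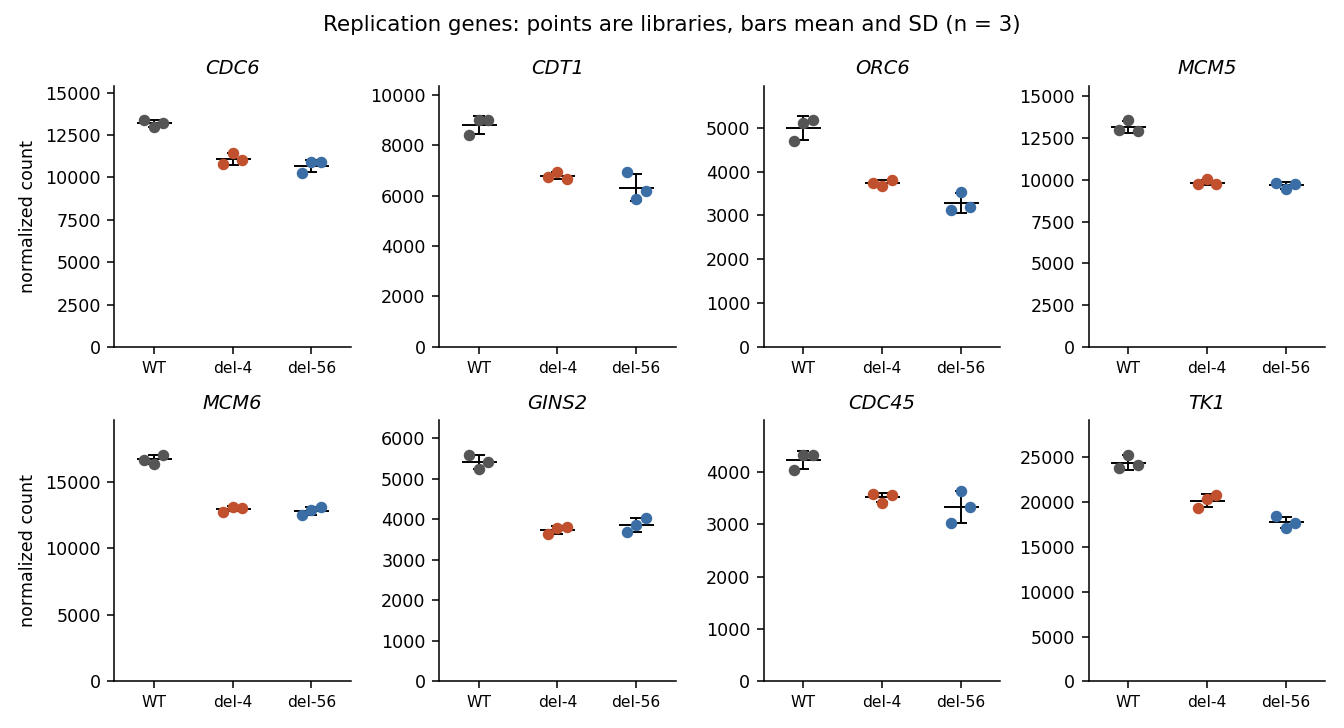
Normalized counts (y axis, from 0) of 8 replication genes in the 3 libraries of WT, del-4 and del-56 (x axis), with the mean and SD of each group. In each panel both deletion clones lie below WT without overlap, for example at 9452 to 10022 against 12941 to 13584 for *MCM5*.

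All 4 listed genes of helicase activation, the step that turns the loaded ring into an active helicase, were lower in both clones. Of the 18 further licensing and firing genes, 4 were lower in both and 9 were called in neither, beside 14.0% lower in both among all genes. *GINS2* (ENSG00000131153.9, chr16:85676198-85690073, minus strand), a subunit of the GINS complex, had the largest fall of the 40 genes in del-4. Its normalized counts were 3637, 3789.7 and 3822 in del-4, 3685, 3860.5 and 4029 in del-56, and 5602, 5234 and 5413 in WT, and the log2 fold change was -0.53 (SE 0.043, adjusted p = 2.26e-08) for del-4 and -0.49 (SE 0.047, adjusted p = 6.31e-07) for del-56. *GINS1*, a second subunit, read 8205.5, 8969.8 and 8931.5 in del-4, 8247.5, 8919.7 and 8626 in del-56, and 10613, 9802 and 10416 in WT and fell, with log2 fold changes of -0.24 and -0.26. *CDC45*, the protein that joins MCM and GINS in the helicase, read 3569, 3411 and 3554 in del-4, 3018, 3634 and 3318 in del-56, and 4033, 4328 and 4314 in WT, with the widest spread in del-56, and the log2 fold change was -0.27 (SE 0.046, adjusted p = 0.000128) for del-4 and -0.35 (SE 0.061, adjusted p = 0.000243) for del-56. *MCM10*, which acts at origin firing, ranged from 6104 to 7048 in the deletion clones and from 7451 to 7809 in WT, and fell, with log2 fold changes of -0.22 in the del-4 clone (adjusted p = 0.00114) and -0.16 for del-56 (adjusted p = 0.00479).

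The 6 listed genes of DNA synthesis moved less than those of licensing and helicase activation. None of the 6 was called in del-4 and 2 were lower in del-56. In the wider lists described further on, 26 fork genes had median log2 fold changes of -0.071 for del-4 and -0.099 for del-56. For 18 further licensing and firing genes these were -0.097 and -0.094. *PCNA*, the sliding clamp of the replicative polymerases and the most abundant of the 40 transcripts per kilobase in WT, read 21433, 22237 and 21201 in del-4, 19900.3, 22021 and 21294 in del-56, and 23355, 22332 and 22729 in WT. Both clones were below WT without overlap, and the log2 fold change was -0.077 (SE 0.035, adjusted p = 0.0902) for del-4 and -0.12 (SE 0.041, adjusted p = 0.0359) for del-56. The call in del-56 was lost without del-56 replicate 1 (-0.074, adjusted p = 0.12) or replicate 3, or without any WT library (adjusted p from 0.0591 to 0.108). In del-4 *PCNA* was called lower after rescaling to the same total (-0.146, adjusted p = 0.00265), with quantile normalization (-0.105, adjusted p = 0.0189), with chromosomes centred (-0.128, adjusted p = 0.00967) and without del-4 replicate 2 (-0.097, adjusted p = 0.0488). *PRIM1*, the catalytic subunit of primase, fell in del-56 (-0.15, SE 0.054, adjusted p = 0.0378) and shares 10.9% of its exon length with another gene on the same strand. The polymerase subunits *POLA1*, *POLE* and *POLE2* and the clamp loader subunit *RFC4* were called in neither clone, with log2 fold changes of -0.20 to 0.060.

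Of the 4 genes of nucleotide supply, 3 differed between the clones in their direct comparison, which called 19.9% of all genes. *TK1* (ENSG00000167900.12, chr17:78174091-78187233, minus strand), which encodes the S phase thymidine kinase, had 19327, 20273 and 20744 in del-4, 18386, 17100.5 and 17665 in del-56, and 23751, 25285 and 24117 in WT. WT was highest and del-56 lowest, with no overlap, and it fell, with log2 fold changes of -0.28 (SE 0.038, adjusted p = 1.04e-05) for del-4 and -0.46 (SE 0.04, adjusted p = 1.77e-07) for del-56. *RRM2*, the small subunit of ribonucleotide reductase, read 26181, 26724 and 25945 in del-4, 21889.7, 23239 and 22631 in del-56, and 27368, 28249.7 and 27706 in WT and fell in del-56 (-0.30, SE 0.037, adjusted p = 8.35e-06) but was not called in del-4 (-0.08, SE 0.034, adjusted p = 0.0674). *RRM1*, its large subunit, was called in neither clone against WT (0.047 and -0.066). *TYMS*, which makes thymidylate, rose in del-56 (0.13, SE 0.038, adjusted p = 0.015) and was not called in del-4 (0.091, SE 0.036, adjusted p = 0.0521). It shares 39.9% of its exon length with *ENOSF1* on the opposite strand, which was higher in both clones (0.15 and 0.16).

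Other genes of the pathway, 85 in 5 lists, fell more often than they rose. In del-4, 33 fell and 13 rose and the median of their log2 fold changes was -0.074. In del-56, 34 fell and 15 rose and it was -0.090. Lower were thus 38.8% in del-4 and 40.0% in del-56, beside 20.2% and 20.5% of all genes tested. Rescaled to the same total, 47 fell and 12 rose in del-4. Under that scaling 4932 of all 17391 genes tested fell and 2364 rose in del-4. Among 18 further licensing and firing genes, 8 fell in del-4 (44.4%) and 5 in del-56 (27.8%) and none rose. *MCM8*, a helicase subunit outside the ring, had the largest mean change of the clones among those called in both (-0.38 and -0.27), followed by *GINS3* (-0.29 and -0.19), whose sign turned with chromosomes centred (0.051 and 0.122, not called) and whose call in del-56 was lost without WT replicate 2 or 3 or del-56 replicate 1 or 3 (adjusted p from 0.0543 to 0.149). Among 26 genes of the fork, 10 fell and 4 rose in del-4 and 13 fell and 4 rose in del-56. The clamp loader subunit *RFC3* read 3738, 4097.5 and 3911 in del-4, 4198, 4414 and 4111 in del-56, and 5398, 5316 and 5527 in WT and fell, with log2 fold changes of -0.47 (SE 0.044, adjusted p = 1.44e-07) and -0.35 (SE 0.044, adjusted p = 9.38e-06). The polymerase epsilon subunit *POLE4* rose, with log2 fold changes of 0.41 (SE 0.042, adjusted p = 3.6e-07) and 0.43 (SE 0.046, adjusted p = 1.81e-06).

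Among 9 further genes of nucleotide supply, 4 fell and 3 rose in del-4 and 5 fell and 1 rose in del-56. That is 44.4% and 55.6% lower, beside 20.2% and 20.5% of all genes. *RRM2B*, the p53-inducible alternative to *RRM2*, read 8321, 7850.3 and 8279 in del-4, 6599.7, 7066 and 7005 in del-56, and 5866, 5604 and 5747 in WT, opposite in direction to *RRM2* in del-56. It rose, with log2 fold changes of 0.51 (SE 0.039, adjusted p = 1.16e-08) for del-4 and 0.26 (SE 0.042, adjusted p = 0.000113) for del-56. The ratio of *RRM2B* to *RRM2* counts was 0.198 to 0.214 in WT and 0.294 to 0.319 in the deletion clones. *DTYMK*, thymidylate kinase, fell, with log2 fold changes of -0.27 and -0.34.

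Among 14 further genes of RB, E2F and the DREAM complex, a repressor of cell cycle genes, 6 fell and 3 rose in del-4 and 7 fell and 3 rose in del-56. *RBL1*, the RB relative p107, had 2819, 2874 and 2830.5 in del-4, 2617, 2879.5 and 2431 in del-56, and 3604, 3630.0 and 3502 in WT and fell like *RB1*, with log2 fold changes of -0.33 (SE 0.045, adjusted p = 1.03e-05) and -0.44 (SE 0.059, adjusted p = 1.95e-05). *RBBP4*, a histone-binding subunit of DREAM and of chromatin complexes, rose, with log2 fold changes of 0.46 (SE 0.038, adjusted p = 2.69e-08) and 0.34 (SE 0.039, adjusted p = 4.46e-06).

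Among 18 further CDK regulators, 3 rose and 5 fell (27.8%) in del-4 and 7 rose and 4 fell (22.2%) in del-56. The lower shares were near the 20.2% and 20.5% of all genes. *CDKN1A* (ENSG00000124762.14, chr6:36676460-36687337, plus strand), which encodes the CDK inhibitor p21, had the largest change in del-4 of the pathway genes outside the 40. It read 21047, 20674 and 20857 in del-4, 14879.7, 15409.7 and 15068 in del-56, and 10006, 10499 and 10618 in WT, with the groups far apart, and the log2 fold change was 1.01 (SE 0.035, adjusted p = 2.94e-13) for del-4, past the study's limits, and 0.54 (SE 0.038, adjusted p = 1.52e-08) for del-56. Within a library there were 1.68 to 1.78 counts of *CDKN1A* for each of *CDKN1B* in WT, 3.14 to 3.31 in del-4 and 2.13 to 2.15 in del-56. *CDKN2A*, which encodes the inhibitor p16 and the p53 regulator ARF, rose by 0.41 and 0.44 on the log2 scale.

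On the deposited scaling more genes of mitosis rose than fell. Of 24, 8 rose and 2 fell (8.33%) in del-4 and 9 rose and 4 fell (16.7%) in del-56, beside 20.2% and 20.5% lower among all genes. In all, 41.7% were called in del-4 and 54.2% in del-56, beside 40.7% and 39.7% of all genes. The median log2 fold change of the 24 was -0.0040 for del-4 and 0.076 for del-56. For del-4 the number of lower ones was 4 with chromosomes centred or with quantile normalization, 8 after rescaling to the same total and 5 without del-4 replicate 2. For del-56 it was 2 without WT replicate 2 or 3 or del-56 replicate 2 or 3. In both clones 7 of the 24 were higher and 2 (*PLK1* and *NUF2*) lower, beside 13.2% and 14.0% of all genes. Log2 fold changes ran from -0.317 to 0.316 in del-4 and from -0.16 to 0.49 in del-56. The mitotic cyclin *CCNB1*, one of those higher in both, was 0.29 in the del-4 clone (adjusted p = 2.65e-06) and 0.35 for del-56 (adjusted p = 2.25e-06). It was named after its values were seen. The ratio of *CCNB1* to *MCM5* counts was 1.72 to 1.83 in WT, 2.85 to 2.95 in del-4 and 2.92 to 3.22 in del-56. It sets a gene that rose against the MCM subunit that changed most, and describes no other genes.

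The median level of each list in each library, relative to the WT mean of each gene, differed between the steps. For licensing genes it was -0.26 to -0.17 in del-4, -0.24 to -0.20 in del-56 and -0.019 to 0.022 in WT. For helicase activation it was -0.33 to -0.23 in del-4, -0.40 to -0.21 in del-56 and -0.046 to 0.035 in WT. Synthesis genes ranged from -0.11 to -0.026 in the deletion clones and from -0.031 to 0.025 in WT, so that these libraries overlapped. The median over the 4 nucleotide genes, of which *TK1* had negative and *TYMS* positive log2 fold changes in both clones, was -0.023 to -0.0060 in del-4 and -0.22 to -0.16 in del-56. These medians describe lists of 4 to 11 genes and were given no test.

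**Figure D4:**
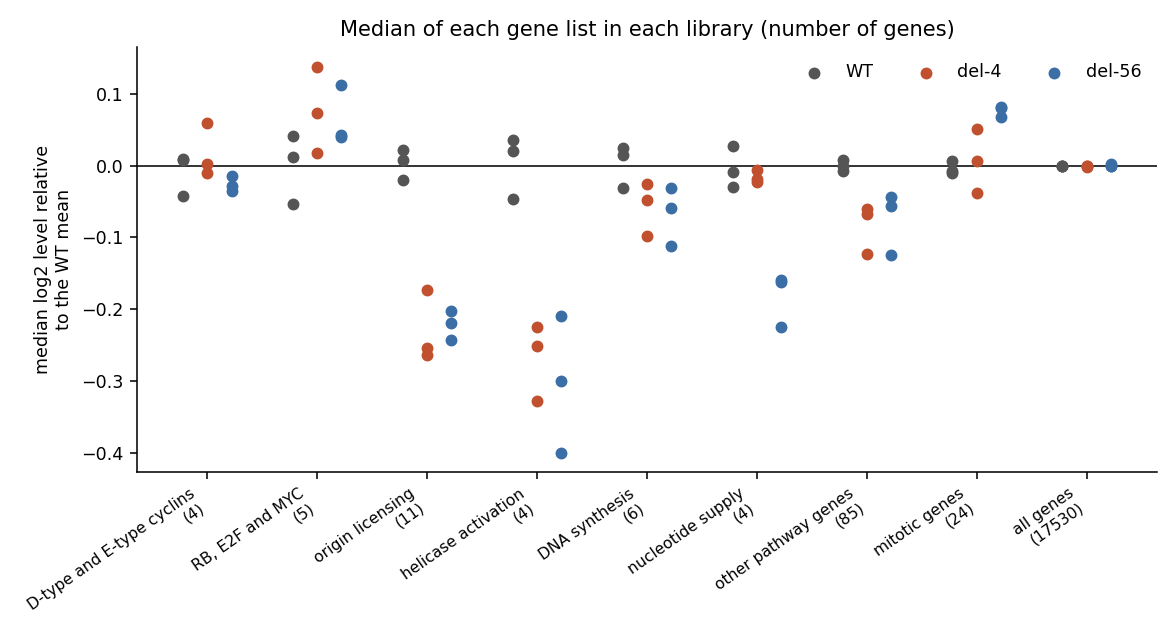
Median over the genes of each list (x axis, number of genes in parentheses) of the log2 level relative to the WT mean (y axis) in each library of WT, del-4 and del-56. Licensing and helicase activation lie at -0.40 to -0.17 in all 6 deletion libraries, mitotic genes at -0.038 to 0.082 and all genes at 0 to within 0.002.

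The deletion clones were also compared with each other. Of the 40 genes, 8 had higher and 2 had lower levels in del-4 than in del-56 (25.0%), beside 19.9% of all genes (10.9% higher and 9.0% lower), and the median log2 difference was 0.022. *CDK6* (1.44, SE 0.19, adjusted p = 2.82e-05) alone passed the study's limits, which 4.28% of all genes passed. *CDKN2C* (0.25, SE 0.043, adjusted p = 0.000467), *RRM2* (0.22, SE 0.036, adjusted p = 0.000253), *CCND1* (0.19, SE 0.035, adjusted p = 0.00086), *E2F1* (0.19, SE 0.041, adjusted p = 0.00279) and *TK1* (0.18, SE 0.039, adjusted p = 0.0027) were higher in del-4. *ORC6* (0.19) and *RRM1* (0.11) were higher in del-4 by less, and *CDKN1B* (-0.13) and *CCNE1* (-0.19) were lower. The number lower was 0 without del-4 replicate 1 or del-56 replicate 2 and 1 without any other library. The call of *ORC6* was lost without replicate 1 or 3 of either clone (adjusted p from 0.0527 to 0.0855) and after rescaling (0.150, adjusted p = 0.0574). That of *RRM1* was lost with chromosomes centred (0.089, adjusted p = 0.0899). That of *RBBP4* was lost without replicate 2 or 3 of either clone (0.0612 to 0.135), with quantile normalization (0.054, adjusted p = 0.335) and after rescaling (0.076, adjusted p = 0.149). Neither the MCM ring (0 of 6) nor helicase activation (0 of 4) was called, with log2 differences of -0.055 to 0.083. Outside the 40, *CDKN1A* (0.46, SE 0.035, adjusted p = 1.94e-08), *RRM2B* (0.24, SE 0.042, adjusted p = 0.000429) and *RBBP4* (0.12, SE 0.036, adjusted p = 0.0294) were higher in del-4.

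Several of these genes lie on chromosomes whose other genes were shifted from 0 in the median. On chromosome 16, which holds *ORC6*, *CDT1* and *GINS2*, the median log2 fold change of the other genes was -0.34 for del-4 and -0.32 for del-56, and 91.6% and 89.5% of them were below 0. On chromosome 2 (*MCM6* and *RRM2*) the median was -0.15 and -0.16, on chromosome 13 (*RB1*) -0.17 and -0.16, and on chromosome 1 (*E2F2*, *CDKN2C* and *ORC1*) 0.11 and 0.11. Of the named pathway genes outside the 40, *GINS3* lies on chromosome 16, *DTYMK* and *POLE4* on chromosome 2, *RFC3* on chromosome 13 and *RBBP4* on chromosome 1. Their calls against WT were kept with chromosomes centred, except those of *GINS3*, and their nearest genes were not examined. The 50 genes nearest to *GINS2* had a median change of -0.43 for del-4 and -0.26 for del-56, those nearest to *CDT1* -0.49 and -0.33, and those nearest to *ORC6* -0.39 and -0.33. The 50 genes nearest to *E2F2* were at 0.40 and 0.40, above *E2F2* itself, and *CDT1* in del-4 was above the median of its neighbours. By contrast, the neighbours of *MCM5* were at -0.09 and -0.05, those of *CDC6* at 0.03 and 0.07 and those of *TK1* at 0.02 and 0.06.

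With each chromosome centred on its median before the fit, 13 of the 15 genes lower in both clones were again called lower in both, and *ORC6* (-0.079, adjusted p = 0.181) and *CDT1* (-0.038, adjusted p = 0.466) were not called in del-4. In del-56 *ORC6* was -0.30 and *CDT1* -0.17, both called. *GINS2* was -0.19 for del-4 and -0.18 for del-56, *MCM6* -0.22 and -0.23, and *RB1* -0.11 and -0.15, all called. *MCM5* was -0.35 and -0.38, *CDC6* -0.29 and -0.35, and *TK1* -0.31 and -0.51. *CDKN2C*, *ORC1* and *PCNA* were then also lower in both clones, and *E2F3* (0.25 and 0.23) was the only gene higher in both. Leaving out the 3 genes of chromosome 16, a choice made after the data were seen, 12 genes fell and 5 rose in del-4 and 20 fell and 4 rose in del-56. The part of these chromosome shifts in the results was not tested further.

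**Figure D5:**
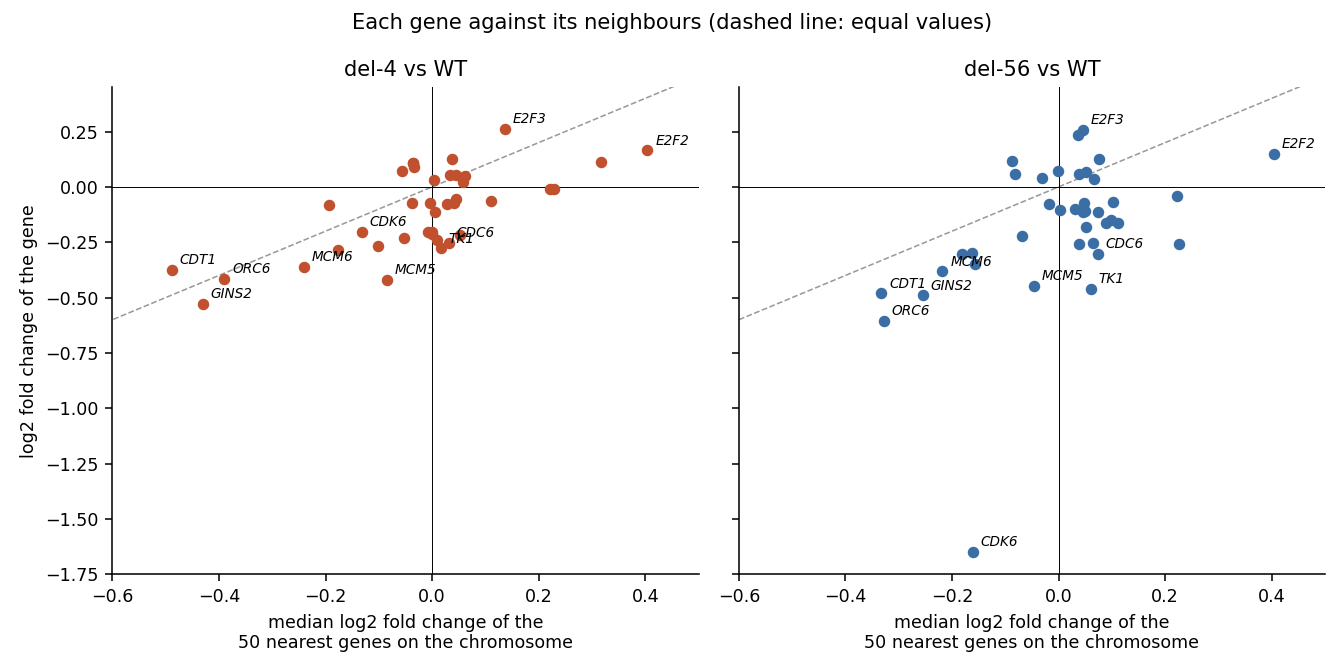
Log2 fold change of each of 39 genes (y axis) against the median log2 fold change of the 50 nearest genes with a mean of at least 10 on its chromosome (x axis, 38 for *POLE* and 30 for *TYMS*), in del-4 (left) and del-56 (right), with a dashed line at equal values. In del-4 28 points and in del-56 30 points lie below the line, *MCM5*, *CDC6* and *TK1* well below it. *ORC6* lies close to it and *CDT1* above it in del-4.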

How the data were processed

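Per the labels, 3 libraries each of del-4, del-56 and WT were sequenced, which the study calls biological replicates. The WT columns carry a further number that no label explains and were matched to the 3 WT samples because the series has no others. The deposited values are a signal made by the authors, i.e., read counts of protein-coding genes divided by a DESeq2 size factor per library. Reads had passed FastQC 0.11.8, Trim Galore 0.6.5, STAR 2.71a (GRCh38), SAMtools 1.8 and BEDTools 2.27.1 multicov on GENCODE v38. Size factors assume that most genes do not change, and exon length is not corrected for. Whole reads were recovered for 100% of values (tolerance 0.001).

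In each comparison, genes whose mean over its 6 libraries reached 1 were tested on log2(value + 1) with limma 3.58.1 (trend, R 4.3.3), and p-values were adjusted with Benjamini-Hochberg over all genes tested. They measure only the spread between replicates of 1 clone. Positions and exon lengths came from GENCODE v44, in which 19905 of 19984 gene IDs were found, and promoters from RefSeq. An exon length covers all annotated exons of a gene, so that comparisons of genes per kilobase depend on the annotation.

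The 40 genes and all lists were chosen with earlier results of these data known. The naming rule took *CCND1*, *CDKN1B*, *RB1*, *E2F1*, *MYC* and *PCNA* in any case, genes called in both clones without overlap with WT, genes past the study's limits, the 5 largest changes of each comparison and, of each further list, the 2 largest changes called in both clones. Other genes given with values were chosen after these were seen. Alternatives were pseudocounts of 0.5 and 5, no filter, a minimum mean of 10, quantile normalization, rescaling to the same total, chromosome centring, 1 fit of all 9 libraries, a replicate block, edgeR 4.0.16 and DESeq2 1.42.0 on recovered reads, and each library left out. The fits were tested on simulated data. Some listed genes are not reported here.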

Additional observations from a re-analysis of the deposited data

Results flagged for a closer look

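The deletion clones differed from each other, by the direct limma comparison of del-4 with del-56, for 10 of the 40 genes and for 3 of the named pathway genes outside them. Each value is the log2 difference of del-4 minus del-56. *CDK6* differed most (1.44) and was below WT by far more in del-56. *CDKN2C* (0.25), *RRM2* (0.22), *E2F1* (0.19) and *TK1* (0.18) were lower in del-56 than in del-4, as were *ORC6* (0.19) and *RRM1* (0.11). *CCND1* (0.19) was above WT in del-4 and below it in del-56, where it was not called. *CDKN1B* (-0.13) and *CCNE1* (-0.19) were higher in del-56. Outside the 40 genes, *CDKN1A* (0.46), *RRM2B* (0.24) and *RBBP4* (0.12) were above WT in both clones and highest in del-4. The *RBBP4* difference was not called with quantile normalization (0.054, adjusted p = 0.335) or after rescaling to the same total (0.076, adjusted p = 0.149).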

How the results depend on the processing

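For the named genes, 1343 values were computed under alternatives for 79 comparisons, of which 1267 kept their direction and their side of the threshold, 49 lost the call, 12 gained one and 15 turned sign. Of the 71 called comparisons 59 were called in every alternative, and edgeR, DESeq2, both pseudocounts, both filters and 1 fit of all 9 libraries lost none. The cause was not tested except where a setting leaves out libraries. Under the limits of the study, which ask for larger changes, 0 of the 40 genes were higher and 0 lower in del-4, 0 higher and 1 lower in del-56, and 1 higher and 0 lower between the clones. Rescaled to the same total, which moved the median of all genes to -0.072 for del-4, -0.029 for del-56 and -0.043 between the clones, 1 gene was higher in del-4 and 2 were in del-56, the medians were -0.143 and -0.144, and 8 mitotic genes were lower in del-4. Between the clones all genes then split into 1382 higher and 2383 lower, in place of 1898 and 1571. With chromosomes centred, 2 genes were higher in del-4, the median in del-56 was -0.147, and 4 mitotic genes were lower in del-4, as with quantile normalization (4). Deviations of libraries with the same replicate number correlated weakly. The correlations were 0.023 to 0.063 for del-4 with del-56 and with WT, and -0.053 to 0 for del-56 with WT. With the replicate block 23 lower genes in del-56 became 19, 4 lower mitotic genes became 2, and *E2F2* (adjusted p = 0.0651) and *PCNA* (adjusted p = 0.0959) in del-56 were not called. Not every library correlated best with its own number. With 1 library left out, 3 to 6 genes were higher and 14 to 17 lower in del-4 (median -0.100 to -0.055), 2 to 4 higher and 19 to 21 lower in del-56 (-0.148 to -0.112), and 6 to 7 higher and 0 to 1 lower between the clones (0.011 to 0.045), and 2 to 5 mitotic genes were lower in del-4 and 2 to 4 in del-56. Of the genes not called, *CDKN2C* in del-4 turned to 0.00074 with quantile normalization, and ranged from -0.032 to 0.022 with 1 library left out (above 0 without WT replicate 2 or del-4 replicate 2). *E2F1* in del-4 turned to -0.028 with chromosomes centred, -0.0013 with quantile normalization, -0.045 rescaled, and ranged from -0.0025 to 0.045 with 1 library left out (below 0 without WT or del-4 replicate 1). *MYC* in del-4 turned to -0.039 rescaled, and ranged from -0.036 to 0.071 with 1 library left out (below 0 without WT replicate 1 or del-4 replicate 2), and in del-56 from -0.00043 (without WT replicate 1) to 0.100. *RRM2* in del-4 turned to 0.065 with chromosomes centred, and was called lower when rescaled (-0.149), with quantile normalization (-0.144), by DESeq2 (-0.080) and without WT replicate 1 (-0.090). The called *GINS3* turned to 0.051 in del-4 and 0.122 in del-56 with chromosomes centred. Between the clones, the call of *CDKN1B* (adjusted p from 0.0693 to 0.102 without del-4 replicate 1 or 2 or del-56 replicate 2 or 3) was lost. At these depths *CCND2* alone was limited by its reads.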
